A study of Mus musculus with 41 samples.

Results

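The regions described are the 95 peaks whose centre lay in 1 of 4 intervals of build mm9, of 155773 peaks in all 8 deposited ChIP-seq peak lists of the series. Each interval was chosen for a gene that marks the hypertrophic chondrocyte: chromosome 10 from 34000000 to 34250000 for Col10a1 (31 peaks), chromosome 13 from 83500000 to 83900000 for Mef2c (36 peaks), chromosome 1 from 74900000 to 75050000 for Ihh (16 peaks) and chromosome 9 from 7150000 to 7350000 for Mmp13 (12 peaks). The intervals were 250, 400, 150 and 200 kb long. The rule that sets the intervals uses no measured value, but the members and lists were chosen with earlier results of these data known.

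The study mapped the genomic sites of Runx2, a runt-domain transcription factor, in skeletal cells of mice. Runx2 was precipitated through a FLAG tag from rib chondrocytes (2 libraries) and calvarial osteoblasts (2 libraries) of C57BL/6 mice that carried 1 tagged knock-in allele (Runx2-BioFL/+) at postnatal day 1. Foxa2, a forkhead factor, was precipitated from wild-type C57BL/6 rib chondrocytes, and the AP-1 protein Jun was precipitated from wild-type C57BL/6 calvarial osteoblasts of the same age (1 library each). 3T3 cells, a mouse fibroblast line, overexpressed either tagged Runx2 or, as the background control, green fluorescent protein (GFP), and FLAG precipitates were made at day 0 and after 3 days in osteogenic medium (1 library for each gene and day). That medium held BMP-2 at 100 ng/ml, β-glycerophosphate at 10 mM and ascorbic acid phosphate at 50 μg/ml. The 23 ATAC-seq libraries of the series, including those of sorted Col10a1-mCherry-positive cells, were not analysed here.

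Each of these 8 groups had a single list of positions without a score, so no value below has a replicate error and no test between lists was made. The sources used here do not give the read depth. Ranges in brackets after a count, ratio or share are 95% intervals for counting error alone, which treat peaks as independent although neighbours may not be. The lists named for 3T3 Runx2 day 0 and 3T3 GFP day 3 had crossed labels, since GEO's description of each sample names the list of the other. They are called here by the names of the lists. The chondrocyte libraries came from whole rib cartilage cells, not from sorted hypertrophic cells, so a site bound in few cells and a site bound weakly in many cannot be told apart. Expression of cell type markers was not measured in these libraries. All chondrocytes came from rib and all osteoblasts from calvaria, so cell type and skeletal site cannot be told apart.

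In the growth cartilage, chondrocytes stop dividing, enlarge and lay down a matrix that is later removed and replaced by bone. Indian hedgehog, encoded by Ihh, is secreted as cells enter this programme, Mef2c is a MADS-box transcription factor that promotes it in mice, Col10a1 encodes the type X collagen chain made by enlarged cells, and Mmp13 encodes a collagenase of the last stage and of osteoblasts. Runx2 and the Foxa factors are both known to promote hypertrophy in mice, and Runx2 with AP-1 is known to act on the Mmp13 promoter in osteoblasts. By the RefSeq gene table of build GRCm38, used for names only, Col10a1 lies within the span of Nt5dc1, Mef2c has Cetn3 and Tmem161b as its nearest coding neighbours, Ihh has Cfap65 and Nhej1, and Mmp13 has Dcun1d5 and Mmp12, another matrix metalloproteinase gene. Gene positions of build mm9 were not used here, so distances from a peak to a gene start are not given.

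The sequences just upstream of the annotated starts of Mmp13 and Col10a1 are shown because, among the members, Mmp13 held the most matches to motifs of the precipitated factors and Col10a1, the locus with the most shared Runx2 and Foxa2 sites, held none. Each is the 250 bases before the start, 5′ to 3′ on the strand of the gene, from RefSeq (GRCm38.p6), with every match to 5 motifs in capitals. The motifs, searched on both strands, were TGTGGT and its wider form TGNGGT (RUNX), TGTTTAC and its wider form TNTTTAC (FOX) and TGANTCA (AP-1), and each wider form includes the narrower. The positions are of another build than the peaks and cannot be set against them.
Mmp13, chr9:7272264-7272513, plus strand: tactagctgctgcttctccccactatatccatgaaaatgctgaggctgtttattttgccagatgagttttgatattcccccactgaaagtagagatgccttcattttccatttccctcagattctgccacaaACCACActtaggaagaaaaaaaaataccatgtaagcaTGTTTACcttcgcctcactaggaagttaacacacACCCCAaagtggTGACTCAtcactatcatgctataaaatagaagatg
Col10a1, chr10:34389731-34389980, plus strand: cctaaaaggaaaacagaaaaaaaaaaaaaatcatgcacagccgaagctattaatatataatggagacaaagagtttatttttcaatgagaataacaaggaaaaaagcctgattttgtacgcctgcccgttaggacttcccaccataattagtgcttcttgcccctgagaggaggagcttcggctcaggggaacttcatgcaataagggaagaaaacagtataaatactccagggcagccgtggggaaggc

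The Mmp13 sequence held TGTGGT in reverse from 118 to 113 bases before the start, TGTTTAC from 81 to 75, a wider RUNX match in reverse from 47 to 42 and TGACTCA from 35 to 29. Of 32851 mouse promoter windows of the same length, 14.0% held TGTGGT, 3.17% TGTTTAC and 6.75% TGANTCA. The Col10a1 sequence held none of the 5 motifs. The Ihh sequence held 2 wider RUNX matches, TGGGGT and TGCGGT, and TGNGGT was found in 40.1% of the windows. Mef2c had 3 annotated starts, of which the first had a wider RUNX match, the second no match and the third an AP-1 match, TGAATCA. A match describes these letters only, and none of these windows was tied to a peak.

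Over the 4 loci together, chondrocyte Runx2 had 13 peaks (exact Poisson interval 6.92 to 22.2), chondrocyte Foxa2 13 (6.92 to 22.2), osteoblast Runx2 9 (4.12 to 17.1) and osteoblast Jun 10 (4.80 to 18.4). The 3T3 Runx2 lists had 15 peaks at day 0 and 23 at day 3, and the GFP lists 2 at day 0 and 10 at day 3. Set against the mean of all genomic windows of the same lengths, the counts were 2.17 times the mean for chondrocyte Runx2 (1.16 to 3.72), 2.28 for Foxa2 (1.21 to 3.89), 2.26 for osteoblast Runx2 (1.03 to 4.29) and 1.72 for Jun (0.827 to 3.17). They were 1.25 times the mean (0.697 to 2.05) for 3T3 Runx2 at day 0 and 1.18 times (0.748 to 1.77) at day 3. The GFP background lists gave 2.08 (0.252 to 7.51) at day 0 and 1.53 (0.735 to 2.82) at day 3. By counting error alone, the interval lay above 1 for 3 lists: Runx2 of both primary cell types and Foxa2. Windows varied more than counting error allows: 49.6% of 250 kb windows held no chondrocyte Runx2 peak and 6.62% held at least 6. For osteoblast Runx2 and Foxa2, 60.0% and 47.0% held none. The intervals are thus too narrow to set these 3 lists apart from the mean. In the order Col10a1, Mef2c, Ihh and Mmp13, the ratios were 4.01, 2.09, 1.11 and 0.836 for chondrocyte Runx2. For Foxa2 they were 4.90, 1.75, 2.33 and 0. The intervals of the control lists were wide enough to include the ratios of the 3 lists.

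**Figure D1:**
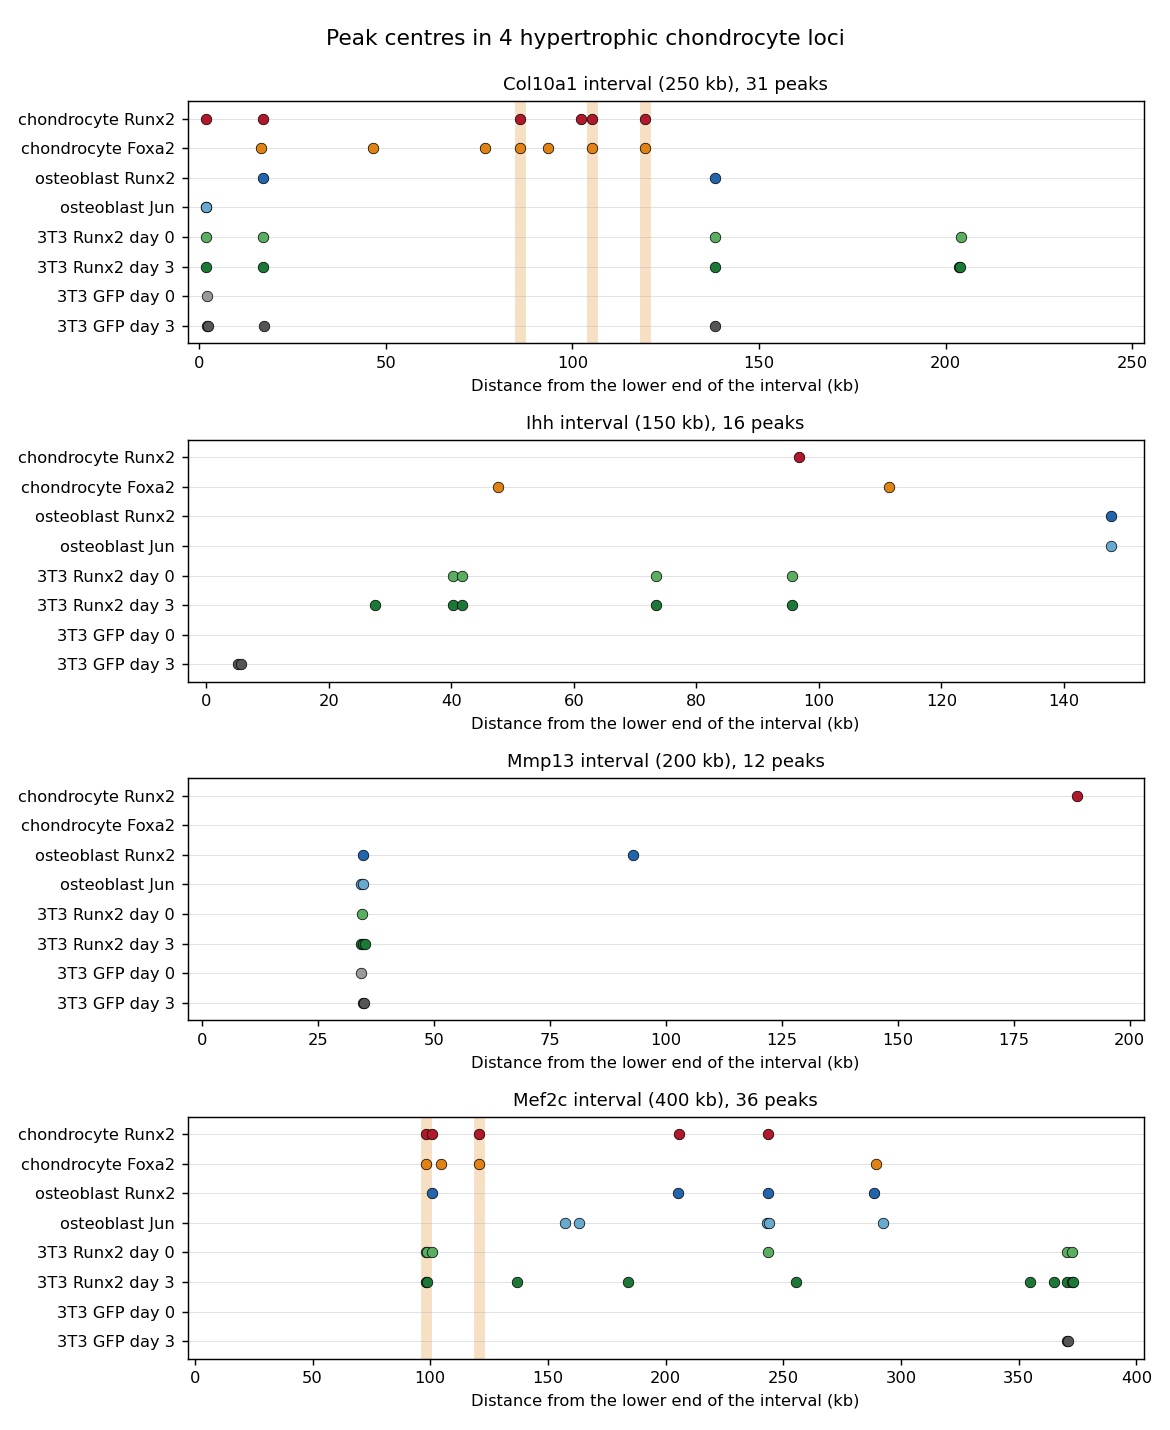
Peak centres of the 8 lists (rows) in each of the 4 intervals, by distance from the lower end of the interval in kb. Each point is 1 peak, and the orange bands (wider than the sites) mark the 5 positions where chondrocyte Runx2 and Foxa2 peaks overlapped, 3 at Col10a1 and 2 at Mef2c.

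The Col10a1 interval held the highest chondrocyte counts of the 4 loci. Of its 6 chondrocyte Runx2 peaks, 3 overlapped Foxa2 alone, 2 overlapped 3T3 Runx2 and 1 was in no other list. The share of the whole list that overlaps Foxa2 alone was not computed. The interval had 6 chondrocyte Runx2 peaks, 7 Foxa2, 2 osteoblast Runx2, 2 Jun, 4 and 5 3T3 Runx2 peaks at day 0 and day 3, and 1 and 4 GFP peaks at day 0 and day 3. The chondrocyte Runx2 count was 4.01 times the mean of 10292 windows of 250 kb, and 6.62% of those windows held at least as many. For Foxa2 the count was 4.90 times the mean, and 3.23% of windows held at least as many. The control list GFP day 0, with its single peak, also stood at 4.16 times its mean, and GFP day 3 at 2.45 times. In the other lists, 23.4% of windows held at least as many osteoblast Runx2 peaks, 30.6% as many Jun peaks, 28.8% as many 3T3 Runx2 peaks at day 0 and 33.9% as many at day 3, 14.9% as many GFP peaks at day 0 and 17.6% as many at day 3. In this interval chondrocyte Runx2 peaks with no osteoblast Runx2 partner numbered 5, a count that 4.85% of windows reached. At Mef2c they numbered 2, which 38% of windows of that length reached, and at Ihh and Mmp13 1 each, which 34% and 39.9% reached.

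Chondrocyte Runx2 and Foxa2 overlapped at 3 sites of the Col10a1 interval, and 1.88% of windows held at least 3 such Runx2 peaks. The first site lay from 34085917 to 34086103, the next from 34105211 to 34105419 and the last from 34119308 to 34119586, all within 33.7 kb. None of the 3 overlapped a peak of osteoblast Runx2, Jun or any 3T3 list. The share of all chondrocyte Runx2 peaks with Foxa2 that overlap none of these was not computed. Over the whole lists, 29.9% of chondrocyte Runx2 and 3.48% of Foxa2 peaks overlapped osteoblast Runx2. For Jun these shares were 17.8% and 1.87%, and for 3T3 Runx2 day 3 52.7% and 10.8%. At the 3 sites the centres of the chondrocyte Runx2 and Foxa2 peaks were 77.5, 0 and 86 bp apart, beside a median of 44 bp over all overlapping pairs of the lists. The nearest osteoblast Runx2 peak was 52.1, 32.8 and 18.6 kb away. A further chondrocyte Runx2 peak, from 34102272 to 34102355, was in no other list and lay 3.00 kb from the nearest Foxa2 peak. The remaining 4 Foxa2 peaks (34016635 to 34016748, 34046680 to 34046783, 34076495 to 34076636 and 34093455 to 34093687) overlapped no other list, and the first of them lay 0.568 kb from a Runx2 peak. Over the whole lists, 72.8% of Foxa2 peaks and 21.3% of chondrocyte Runx2 peaks overlapped no other list.

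The other chondrocyte Runx2 peaks of the Col10a1 interval overlapped 3T3 Runx2 peaks of both days and, at their upper ends only, peaks named for GFP day 3. The Runx2 peak from 34001945 to 34002042 met a GFP peak from 34002027 to 34002224. That from 34017210 to 34017309 met a GFP peak from 34017299 to 34017545. The site from 34001910 to 34002493 was in 6 lists, with chondrocyte Runx2, Jun, 3T3 Runx2 of both days and GFP of both days. Its GFP day 0 peak, from 34002155 to 34002246, joined the site through GFP day 3 and did not overlap the chondrocyte Runx2 peak. The site from 34017181 to 34017545 was in 5 lists, including Runx2 of both primary cell types and of 3T3 cells on both days, and the list named for GFP day 3. At this site the chondrocyte and osteoblast Runx2 centres were 5 bp apart. Osteoblast Runx2 had another peak from 34137920 to 34138293, in a site that ran to 34138335. This site was shared with 3T3 Runx2 of both days and the list named for GFP day 3, and not with either chondrocyte list. A GFP list overlapped 2 of 6 chondrocyte Runx2 peaks, 0 of 7 Foxa2 peaks and 2 of 2 osteoblast Runx2 peaks of this interval. Over the whole lists these shares were 14.8% for chondrocyte Runx2, 0.814% for Foxa2 and 21.5% for osteoblast Runx2. The widest site, 998 bp from 34203307 to 34204304, held 3T3 Runx2 peaks of both days alone. The remaining peak, from 34001678 to 34001835, was of Jun alone, as were 40.6% of peaks of the whole Jun list.

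**Figure D2:**
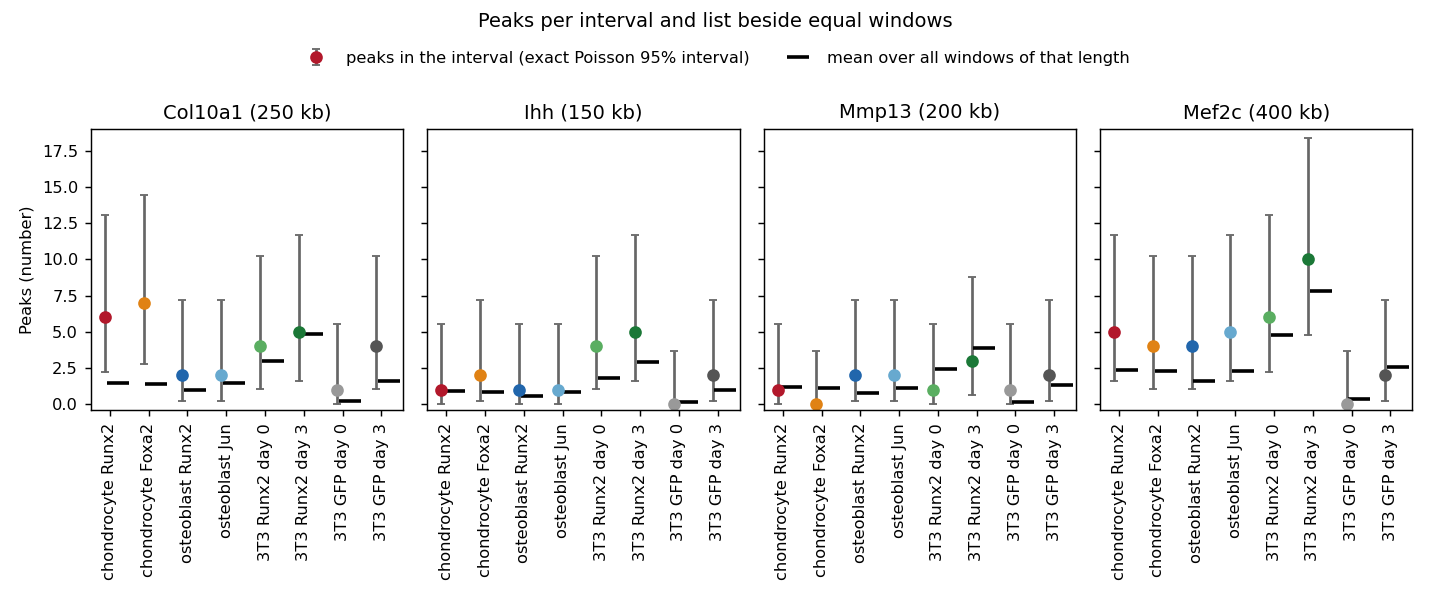
Number of peaks per list in each interval (points, with exact Poisson 95% intervals) beside the mean over all windows of the same length between the first and last peak of each chromosome (black bars). At Col10a1 chondrocyte Runx2 (6 peaks) and Foxa2 (7 peaks) lay at 4.01 and 4.90 times their means, and at Mmp13 Foxa2 had 0 peaks.

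The Mef2c interval, the longest of the 4, held 5 chondrocyte Runx2 peaks, 4 Foxa2, 4 osteoblast Runx2, 5 Jun, 6 and 10 3T3 Runx2 peaks at day 0 and day 3, and 0 and 2 GFP peaks at day 0 and day 3. Beside the mean of 6443 windows of 400 kb, the count was 2.09 times for chondrocyte Runx2 and 1.75 times for Foxa2. It was 2.52 times for osteoblast Runx2 and 2.16 times for Jun. For 3T3 Runx2 it was 1.25 and 1.28 times at day 0 and day 3, and for GFP day 3 0.767 times. Many windows reached these counts: 20.1% held at least as many chondrocyte Runx2 peaks, 24.6% as many Foxa2, 16.6% as many osteoblast Runx2 and 19% as many Jun. As many 3T3 Runx2 peaks were held by 30.6% and 30.1% at day 0 and day 3, and as many peaks named for GFP day 3 by 41%. GFP day 0 had none here, as in 78.5% of windows. The lists were spread over 22 sites, of which 14 were in a single list (63.6%). That was close to the 61.1% of 82629 sites in the genome, merged in the same way.

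Every chondrocyte Runx2 peak of the Mef2c interval overlapped at least 1 other list, and the partner was Foxa2 or osteoblast Runx2 but never both. Thus 0 of 5 were in no other list (interval up to 43.4%), which includes the 21.3% of the whole list. Foxa2 was the partner at 2 sites, a number of such Runx2 peaks that 10.3% of windows reached. The site from 83597842 to 83598194 held chondrocyte Runx2, Foxa2 and 3T3 Runx2 of both days, with the Runx2 and Foxa2 centres of chondrocytes 13.5 bp apart. It was the only site of the 4 loci where Foxa2 and 3T3 Runx2 met. The site from 83620631 to 83620764 held chondrocyte Runx2 and Foxa2 alone, 28 bp apart. Osteoblast Runx2 was the partner at 3 sites: from 83600515 to 83600829, with 3T3 Runx2 at day 0, from 83705179 to 83705653, with no further list, and from 83743021 to 83743488, with Jun and 3T3 Runx2 at day 0. The centres of the peaks of both primary cell types were 72, 115.5 and 53 bp apart at these sites, beside a median of 35 bp over all overlapping pairs. None of these 5 sites overlapped a GFP list.

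Osteoblast Runx2 had a further Mef2c peak from 83788544 to 83788736 in no other list, and Jun was alone at 4 sites: from 83657236 to 83657430, from 83662952 to 83663089, from 83743709 to 83743772, and 473 bp from 83791921 to 83792393. The other Foxa2 peaks, from 83604512 to 83604623 and from 83789315 to 83789481, were also alone. Over the whole lists, 21.7% of osteoblast Runx2, 40.6% of Jun and 72.8% of Foxa2 peaks were in no other list. Toward the upper end of the interval, from 83854659 to 83873259, lay 6 sites that held 3T3 peaks and none of primary cells. GFP peaks occurred in the Mef2c interval in this stretch alone, at 2 of the 6 sites: from 83870195 to 83870658, with 3T3 Runx2 of both days, and by itself from 83870840 to 83871186.

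The Ihh interval held few peaks of primary cells: 1 of chondrocyte Runx2, 2 of Foxa2, 1 of osteoblast Runx2 and 1 of Jun, beside 4 and 5 of 3T3 Runx2 at day 0 and day 3, and 0 and 2 of GFP at day 0 and day 3. Of 17139 windows of 150 kb, 40.3% held at least as many chondrocyte Runx2 peaks, 20.4% as many Foxa2, 30.3% as many osteoblast Runx2, 35.9% as many Jun, 18.7% and 23.4% as many 3T3 Runx2 peaks at day 0 and day 3, and 21.8% as many peaks named for GFP day 3. GFP day 0 had none, as in 90.2% of windows. The chondrocyte Runx2 peak, from 74996752 to 74996884, was in no other list, and the nearest 3T3 Runx2 day 3 peak, in a site of both days (74995518 to 74995760), had its centre 1.24 kb from it. The Foxa2 peaks, from 74947619 to 74947715 and from 75011347 to 75011590, were also private. Over the whole lists, 72.8% of Foxa2 and 21.3% of chondrocyte Runx2 peaks were in no other list. The nearest chondrocyte Runx2 peak was 49.2 and 14.7 kb away from these Foxa2 peaks. The interval thus held no overlap of chondrocyte Runx2 with Foxa2, as did 87.4% of windows. At 4 sites 3T3 Runx2 of both days overlapped, each without a primary-cell or GFP peak. The other 3 of these lay from 74940167 to 74940331, from 74941689 to 74941917 and from 74973382 to 74973522, and a site of day 3 alone from 74927524 to 74927625. The peaks named for GFP day 3, from 74905081 to 74905308 and from 74905436 to 74905785, were apart from all of them. Osteoblast Runx2 and Jun shared the site from 75047632 to 75047873, close to the upper end of the interval. Widened by 50 kb on both sides, the Ihh interval held 5 chondrocyte Runx2, 6 osteoblast Runx2, 5 Foxa2 and 3 Jun peaks, so its counts depended on where it ended.

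The Mmp13 interval held 12 peaks in 3 sites, and 10 of the peaks made up a single site with GFP background. That site, from 7184151 to 7185211, was the widest of the 4 loci (1061 bp). It held 1 osteoblast Runx2 peak, 2 Jun peaks, 1 and 3 of 3T3 Runx2 at day 0 and day 3, and 1 and 2 of GFP at day 0 and day 3. Apart from it the interval had 1 osteoblast Runx2 peak, from 7242879 to 7243064, and 1 chondrocyte Runx2 peak, from 7338644 to 7338812, each in no other list. Over the whole lists, 21.7% of osteoblast Runx2 and 21.3% of chondrocyte Runx2 peaks were in no other list. Foxa2 had no peak in the interval, as in 52.4% of 12859 windows of 200 kb, and hence no overlap of chondrocyte Runx2 with Foxa2, as in 84.3%. The osteoblast Runx2 peak within the large site overlapped Jun and a GFP list. At least as many peaks were found in 46.4% of windows for chondrocyte Runx2 (1), 19% for osteoblast Runx2 (2), 26.4% for Jun (2), 47.5% and 38.7% for 3T3 Runx2 at day 0 and day 3 (1 and 3), and 12.5% and 26.7% for GFP at day 0 and day 3 (1 and 2). The AP-1 and RUNX letters shown upstream of the Mmp13 start could not be placed relative to these peaks. Without the peaks that overlapped a GFP list, the interval had 1 osteoblast Runx2 and 0 Jun peaks.

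Across the 4 loci, 5 of 13 chondrocyte Runx2 peaks overlapped Foxa2 (38.5%, Wilson interval 17.7 to 64.5%), beside 18.3% of the whole chondrocyte Runx2 list. None of the 9 osteoblast Runx2 peaks did (interval up to 29.9%), beside 4.93% of that list. The member interval includes the share of the whole list in both cases. With peaks that overlapped a GFP list left out, the share of chondrocyte Runx2 peaks with Foxa2 was 5 of 11 (45.5%). Counted from Foxa2, 5 of 13 peaks (38.5%, 17.7 to 64.5%) overlapped chondrocyte Runx2, beside 19.2% of the whole Foxa2 list. The median distance from a chondrocyte Runx2 peak to the nearest Foxa2 centre was 2.54 kb in the 4 loci and 18.0 kb over the whole list. In the 4 loci the distances ran from 0 kb at Col10a1 to 209 kb at Mmp13. They include the 5 overlapping peaks, so the median is not separate from that share. Other Foxa2 partners were few: 1 of 13 Foxa2 peaks overlapped 3T3 Runx2 at day 0 and at day 3, beside 7.08% and 10.8% of the list, and 0 of 13 overlapped Jun, beside 1.87%. Of the 13 Foxa2 peaks, 8 were in no other list (61.5%, 35.5 to 82.3%), beside 72.8%.

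Runx2 sharing between the primary cell types was close to that of the whole lists. Of 13 chondrocyte Runx2 peaks 4 overlapped osteoblast Runx2 (30.8%, 12.7 to 57.6%), beside 29.9% of the list. Of 9 osteoblast Runx2 peaks 4 overlapped chondrocyte Runx2 (44.4%, 18.9 to 73.3%), beside 45.2%. The 4 shared sites lay at Col10a1 (1) and Mef2c (3), and none lay at Ihh or Mmp13. For Jun the shares were 3 of 9 osteoblast Runx2 peaks (33.3%, 12.1 to 64.6%), beside 25.3% of the list, and 2 of 13 chondrocyte Runx2 peaks (15.4%, 4.33 to 42.2%), beside 17.8%. The 3 osteoblast Runx2 peaks with Jun stood at Ihh, Mmp13 and Mef2c, 1 at each.

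**Figure D3:**
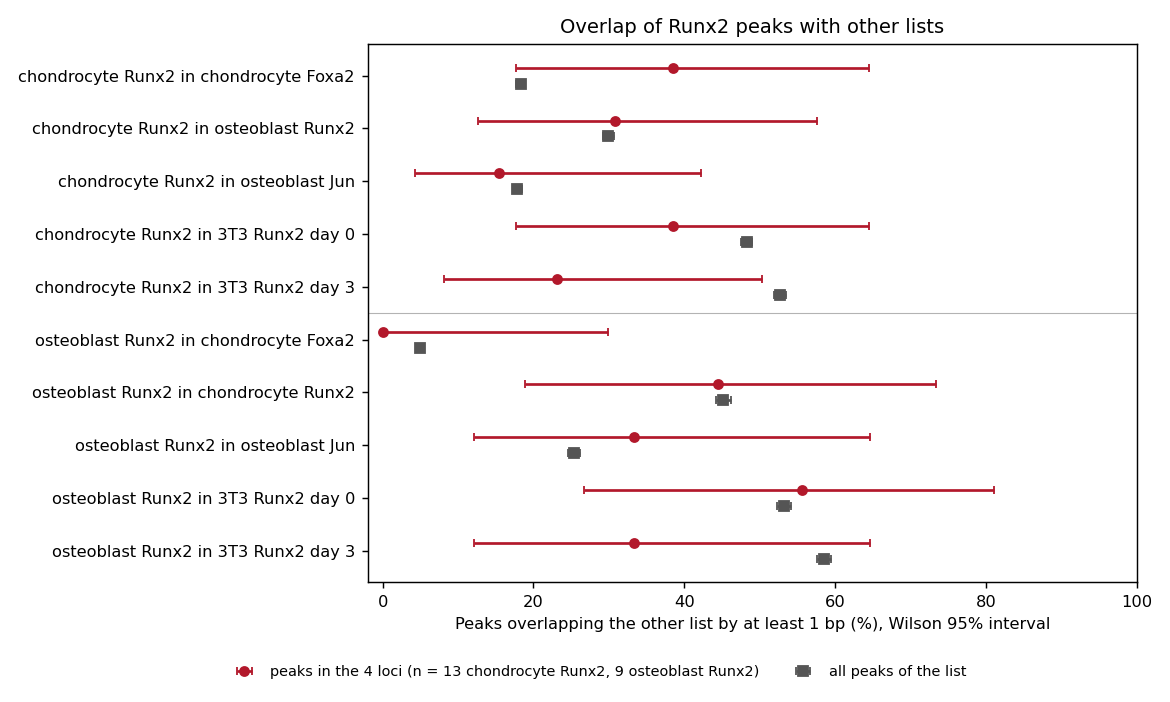
Share of Runx2 peaks that overlapped another list, for the peaks in the 4 loci (red circles, 13 chondrocyte and 9 osteoblast peaks) above the whole list (grey squares), with Wilson 95% intervals. The interval of the 4 loci excluded the share of the whole list only for chondrocyte Runx2 in 3T3 Runx2 day 3 (23.1% beside 52.7%), among the 10 pairs drawn, and that share was 75% (3 of 4 peaks) in the first 50% of each list.

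The share of chondrocyte Runx2 peaks that overlapped 3T3 Runx2 at day 3 was below that of the whole list with the lists as deposited, but depended on the setting. It was 3 of 13 peaks (23.1%, 8.18 to 50.3%), beside 52.7%. With each list cut to the first 50% of its order it was 3 of 4 (75%), in the wider 50% of each list 0 of 5, without the peaks that overlapped a GFP list 1 of 11 (9.09%), and in intervals narrowed by 25 kb 1 of 10 (10%). At day 0 the share was 5 of 13 (38.5%, 17.7 to 64.5%), beside 48.2%. For osteoblast Runx2 the shares were 5 of 9 at day 0 (55.6%, 26.7 to 81.1%), beside 53.2%, and 3 of 9 at day 3 (33.3%, 12.1 to 64.6%), beside 58.5%. The 3 osteoblast peaks found in the day 3 list were also the 3 that overlapped a GFP list. Among 3T3 peaks themselves, 13 of 15 day 0 peaks (86.7%) overlapped a day 3 peak, beside 81.8% of the list, and 13 of 23 day 3 peaks (56.5%) overlapped a day 0 peak, beside 51.4%. Of the 13 chondrocyte Runx2 peaks, 0 overlapped GFP day 0, beside 2.86% of the list, and 2 overlapped the list named for GFP day 3, beside 13.6%. A GFP list overlapped 5 of 15 day 0 peaks (33.3%), beside 23.4%, and 6 of 23 day 3 peaks (26.1%), beside 17.2%. With the lists of crossed labels exchanged, 26.1% of the day 3 peaks overlapped the day 0 list.

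Merging overlapping peaks of all lists gave 49 sites in the 4 loci, of which 28 were in a single list (57.1%), beside 61.1% of 82629 sites in the genome, and 6 were in 4 or more lists, beside 9.32%. Of 18 sites with Runx2 of a primary cell type, 7 also had Runx2 of 3T3 cells and 11 did not. The genome share of such sites was not computed. By peak, 48.2% and 52.7% of the whole chondrocyte Runx2 list overlapped 3T3 Runx2 at day 0 and day 3. For the osteoblast Runx2 list these shares were 53.2% and 58.5%. Each is for 1 list and 1 day, while the 18 sites join both cell types and both days, so the measures are unlike. A further 15 sites had 3T3 Runx2 without primary Runx2, with 9 of them at Mef2c (of its 22 sites) and 5 at Ihh (of its 11 sites). Their genome share was not computed either. By peak, 27.2% of the whole 3T3 Runx2 list of day 0 and 18.4% of day 3 overlapped chondrocyte Runx2. For osteoblast Runx2 these shares were 20.7% and 14.1%. They count peaks of 1 day that did overlap 1 primary list, so they are no background for the 15 sites. GFP peaks lay at 8 sites and Foxa2 peaks at 13, and no site held both. Over the whole Foxa2 list only 0.814% of peaks overlapped a GFP list, so such an absence is usual.

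At Col10a1, but not at Mef2c, the chondrocyte Runx2 peaks with Foxa2 all stood later in their deposited list than those without it. What set that order is not given in the sources used here. The Col10a1 chondrocyte Runx2 peaks that overlapped Foxa2 stood 84.1%, 93.0% and 97.4% of the way through their list, while those at the sites shared with 3T3 cells stood at 2.57% and 20.4% and the peak in no other list at 57.8%. The Foxa2 peaks at the same 3 sites stood early, at 19.7%, 25.9% and 13.5% of their list. At Mef2c the chondrocyte Runx2 peaks with Foxa2 stood at 15.8% and 81.9%, and the 3 peaks shared with osteoblast Runx2 at 4.67%, 68.5% and 81.1%. Over the whole list, chondrocyte Runx2 peaks with Foxa2 had a median place of 42.9% and those without it 51.6%. With each list cut to the first 50% of its order, 0 of the 3 Col10a1 sites and 1 of the 2 Mef2c sites remained as overlaps of chondrocyte Runx2 with Foxa2. In the wider 50% of each list 1 remained at Col10a1 and 0 at Mef2c.

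**Figure D4:**
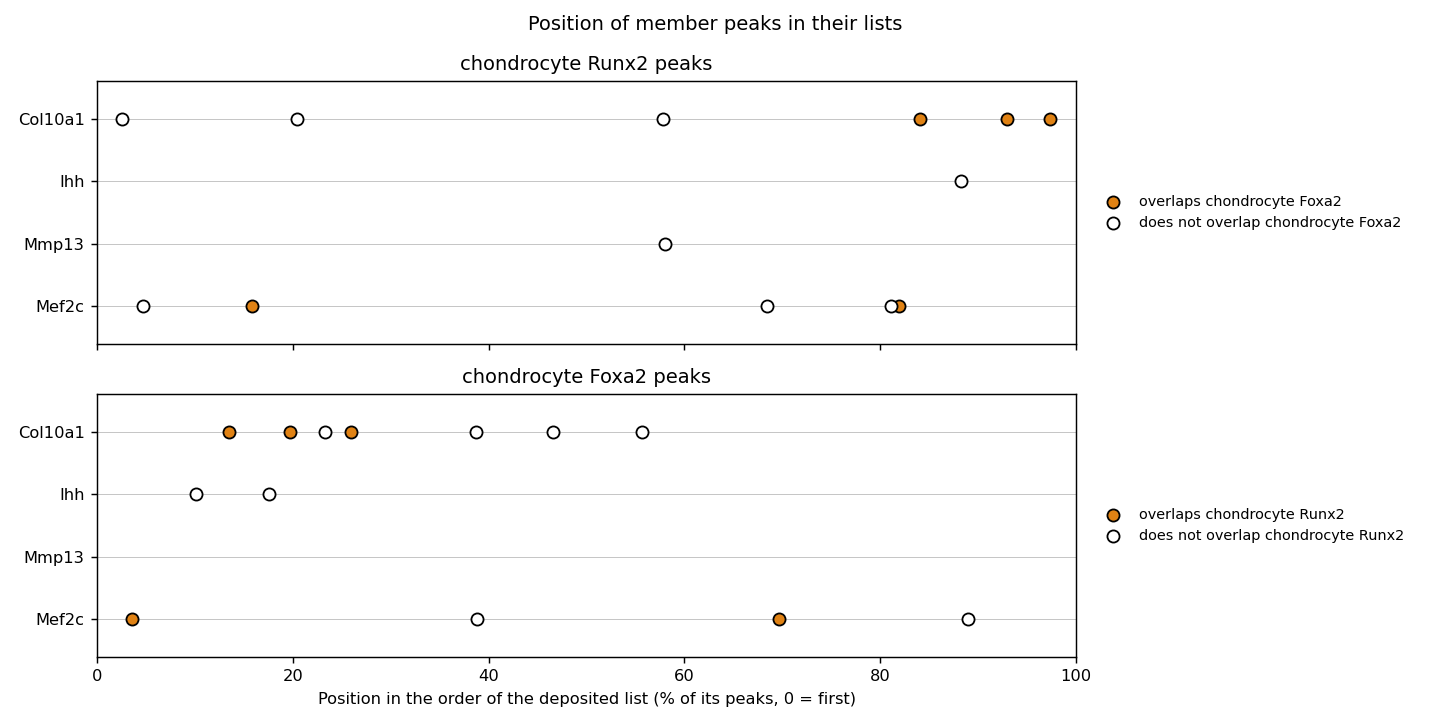
Place of the 13 chondrocyte Runx2 peaks (upper panel) and 13 Foxa2 peaks (lower panel) of the 4 loci in the order of their deposited lists, in percent of the list, with overlapping peaks in orange. At Col10a1 the 3 overlapping sites stood after 84% of the Runx2 list and before 26% of the Foxa2 list.

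Member peaks were of ordinary width for their lists. Chondrocyte Runx2 members had a median width of 133 bp (range 84 to 248), beside 136 bp over the list, and osteoblast Runx2 members 193 bp (range 142 to 475), beside 186 bp. Foxa2 members had a median of 114 bp (range 79 to 244), beside 120 bp, and Jun members 148 bp (range 40 to 473), beside 134 bp.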

How the data were processed

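The authors deposited 1 list of peak positions for each of 8 ChIP groups, with chromosome, start and end and no score, per the files themselves. Per the submitters' processing notes, the genome build was mm9 and the tools included DiffBind and Bowtie, without saying which step used either. Not given in the sources used here are the peak calling program, cut-offs, control libraries and whether the 2 Runx2 libraries of a primary cell type were joined. Depth is unknown. Coordinates are printed 1-based.

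Peaks with their centre in an interval were counted. Overlap meant at least 1 bp, and the sites were overlapping peaks of all lists merged. Background windows of the length of each interval were tiled from the start of each of 20 chromosomes and kept from the first to the last peak. Poisson intervals are exact, and shares have Wilson 95% intervals. Design rows that needed mm9 genes or sequence, among them the other hypertrophic genes, were not run. Sites were named by a fixed rule: those with chondrocyte Runx2 and Foxa2, in 4 or more lists, holding the widest peak of a primary-cell list, or any peak of a list with 5 or fewer in the locus, up to the 10 sites in the most lists per locus. Other sites given by position (single-list sites at Col10a1 narrower than the widest Foxa2 peak and not of Jun, the upper Foxa2 site at Ihh, and single-list sites in the upper part of the Mef2c interval) were chosen after their values were seen. The members and lists were chosen with earlier results of these data known. Overlaps were checked against bedtools 2.31.1 (0 of 56 pairs differed) and tested on simulated data. Scripts used pandas 2.3.3, SciPy 1.17.1, matplotlib 3.10.9 and NumPy 2.4.6 under Python 3.11.15.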

Additional observations from a re-analysis of the deposited data

How the results depend on the processing

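No paired analysis was possible because each group had 1 list and no fit was made. In the wider 50% of each list the 4 loci held 5 chondrocyte Runx2, 6 Foxa2, 5 osteoblast Runx2 and 6 Jun peaks, and chondrocyte Runx2 overlapped Foxa2 at 1 Col10a1 site, 0 Mef2c sites and 1 in all. In the first 50% of each file they held 4 chondrocyte Runx2 and 3 Jun peaks, with 0, 1 and 1 such overlaps, and 14.3% of osteoblast Runx2 peaks overlapped chondrocyte Runx2. Both settings shorten the lists by construction. Intervals widened by 50 kb on both sides held 14 osteoblast Runx2 peaks, and 6 of these were at Ihh. The other 88 of 102 recomputed values of the main counts and shares stayed within 1.5 times the count, or within the Wilson interval of the share. For shares this was a weak check, since the intervals were wide. That of chondrocyte Runx2 peaks with Foxa2, 17.7 to 64.5%, took in 20% (n = 5) in the wider 50% and 25% (n = 4) in the first 50%. The 88 include removal of peaks that overlapped a GFP list, sharing defined by centres within 250 bp or by 50% of the shorter peak, and intervals narrowed by 25 kb. Merging of overlapping peaks of a list, also included, was chosen after seeing the data. Exchange of the crossed lists is included too, but it could not move a main value, since these use primary-cell lists alone. Of 355 other values, 91 moved, 81 to a lower and 10 to a higher value, and shifting the window tiling moved 0 of 17. Counts of 1 to 7 peaks and unknown depth limit what each locus can show.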
